A study of Mus musculus with 17 samples.

Results

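Transcripts of some neutrophil granule genes were listed above 0 in every library of a mouse study of B cells. The primary and secondary granule genes had different profiles across the libraries. The genes were 10 of the 18554 gene symbols in the deposited table, and all 10 were present. They were Mpo, Elane, Prtn3 and Ctsg of the primary granules, Ltf, Camp, Ngp and Lcn2 of the secondary granules, and S100a8 and S100a9 of the cytosol. They were chosen by their TPM in these libraries, in an earlier look at the table, so their levels and group differences are given as a description. All 10 were among the 9898 genes tested, which had at least 1 TPM (transcript abundance corrected for length and scaled to a fixed library total) in at least 2 libraries. A gene could enter through the groups where it was high. S100a8 and S100a9 reached 1 TPM in all 17 libraries, Mpo and Elane in 10, and Prtn3 and Ctsg in 8. Ltf reached it in 12, Camp in 15, and Ngp and Lcn2 in 14. Prtn3 was listed at 0 in 3 libraries and Ctsg in 2.

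The 17 libraries were polyadenylated RNA of C57BL/6 B cells from 5 groups. DM-CLL (n = 2) and DM (n = 3) had sample titles that name both Sf3b1 and Atm, and DM-CLL was labelled with CLL, chronic lymphocytic leukaemia, in addition. Atm MT (n = 6) had the Atm lesion alone, Sf3b1 MT (n = 3) the Sf3b1 mutation alone, and WT (n = 3) neither. The series title describes a mutant Sf3b1 and a deleted Atm, both limited to B cells, and the titles call all animals old. The labels used here give neither the Cre driver, the tissue, the ages nor whether replicates were separate mice, so p-values measure only the spread between these libraries. Replicates carry the numbers of their titles, which are 4 and 5 for DM-CLL and 1, 3 and 6 for DM.

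A neutrophil fills its granules in sequence while it matures in the bone marrow. Promyelocytes make the primary (azurophil) granules with myeloperoxidase and serine proteases, and later myelocytes and metamyelocytes make the secondary (specific) granules with lactoferrin, cathelicidin and lipocalin. Transcription of the primary granule genes is shut off before the secondary granule genes are at their height, while S100a8 and S100a9 transcripts persist in mature neutrophils. Whether the B cells of these libraries made any of these transcripts was not tested.

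Genes of B cells were abundant in every library. The summed TPM of 10 B-cell genes was between 6960 and 15776, and Cd79a, a chain of the B-cell receptor, was between 866 and 1988 TPM. The B-cell sum was 8213 and 9474 TPM in DM-CLL and 6960 to 9561 in DM. It was 10433 to 13757 TPM in Atm MT, 10746 to 14243 in Sf3b1 MT and 11973 to 15776 in WT. Sf3b1 averaged 139 ± 1.83 TPM in DM-CLL, 57.4 ± 17.1 in DM, 141 ± 31.1 in Atm MT, 69.9 ± 19.3 in Sf3b1 MT and 105 ± 8.51 in WT (SD). Atm averaged 8.49 ± 1.0 TPM in DM-CLL, 3.41 ± 0.789 in DM, 7.50 ± 4.23 in Atm MT, 5.26 ± 1.94 in Sf3b1 MT and 7.64 ± 1.20 in WT. Whole-gene TPM shows neither a point mutation nor the loss of some exons, so these levels do not check the labels. Some libraries stood apart by genes of other cells. Atm MT replicates 1 to 4 had 798 to 1475 summed TPM of 9 red pulp macrophage genes, against 49.4 to 231 in the other 13 libraries. DM-CLL replicate 4 had 35084 summed TPM of 10 erythroid genes and 145 of 8 T-cell genes, against 47.3 and 7.42 in DM-CLL replicate 5. TPM is relative to each library's total. No counts were used, so the depth is unknown.

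Mpo, Elane, Prtn3 and Ctsg share 1 profile over these libraries, given next, and their promoter windows are shown to let their sequence be compared. The windows are the 250 bases before the RefSeq start of each gene on GRCm38.p6, written 5′ to 3′ on the strand of the gene, and RefSeq held a window for 10 of the 10 granule genes. Capitals mark AGGAAGT, a form of the core motif of ETS-family factors.

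Mpo (chr11:87793534-87793783, plus strand): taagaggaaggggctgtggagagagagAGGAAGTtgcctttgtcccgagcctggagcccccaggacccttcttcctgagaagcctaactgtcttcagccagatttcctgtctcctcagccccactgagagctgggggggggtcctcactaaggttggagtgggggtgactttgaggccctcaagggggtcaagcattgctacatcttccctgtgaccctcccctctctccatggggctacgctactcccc
Elane (chr10:79886062-79886311, plus strand): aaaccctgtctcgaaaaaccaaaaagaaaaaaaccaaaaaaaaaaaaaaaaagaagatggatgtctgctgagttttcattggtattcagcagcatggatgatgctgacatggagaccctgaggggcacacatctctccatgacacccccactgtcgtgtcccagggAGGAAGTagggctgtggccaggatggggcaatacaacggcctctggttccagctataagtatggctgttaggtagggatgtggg
Prtn3 (chr10:79879417-79879666, plus strand): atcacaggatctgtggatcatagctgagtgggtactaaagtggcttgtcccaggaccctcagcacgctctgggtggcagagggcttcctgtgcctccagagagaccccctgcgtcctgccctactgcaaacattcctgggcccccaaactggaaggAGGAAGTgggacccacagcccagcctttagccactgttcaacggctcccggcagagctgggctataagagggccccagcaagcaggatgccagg
Ctsg (chr14:56102575-56102824, minus strand): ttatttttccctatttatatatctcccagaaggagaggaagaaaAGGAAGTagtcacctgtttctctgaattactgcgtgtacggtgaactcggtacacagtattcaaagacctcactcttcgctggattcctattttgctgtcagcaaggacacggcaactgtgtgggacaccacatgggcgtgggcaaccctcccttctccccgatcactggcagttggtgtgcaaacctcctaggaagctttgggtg

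AGGAAGT, searched on both strands, was in 4 of the 4 primary granule windows. Its first base was at −223 in Mpo, −84 in Elane, −94 in Prtn3 and −206 in Ctsg, counted from the RefSeq start. It was in 0 of the 4 secondary granule windows and in 1 of the 2 cytosolic ones, S100a8, where it was on the opposite strand. Of 32851 RefSeq windows of the same length, 7.69% held it. The motif was picked after the sequences had been seen, and a match describes letters, not a bound site.

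The windows of Ltf and Ngp, secondary granule genes that share another profile, are shown for contrast. Capitals mark TTNNGNAA on either strand, a pattern of the C/EBP family of factors, where N is any base. Both matches in Ltf are on the strand shown. In Ngp the match at −11 is on the strand shown. Those at −138 and −102 are on the opposite strand, so their capitals show the reverse complement of the pattern.

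Ltf (chr9:111019042-111019291, plus strand): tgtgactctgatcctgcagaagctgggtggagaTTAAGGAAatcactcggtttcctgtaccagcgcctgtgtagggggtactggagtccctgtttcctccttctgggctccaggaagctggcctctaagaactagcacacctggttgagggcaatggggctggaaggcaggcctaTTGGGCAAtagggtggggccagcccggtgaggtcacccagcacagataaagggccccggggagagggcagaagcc
Ngp (chr9:110419558-110419807, plus strand): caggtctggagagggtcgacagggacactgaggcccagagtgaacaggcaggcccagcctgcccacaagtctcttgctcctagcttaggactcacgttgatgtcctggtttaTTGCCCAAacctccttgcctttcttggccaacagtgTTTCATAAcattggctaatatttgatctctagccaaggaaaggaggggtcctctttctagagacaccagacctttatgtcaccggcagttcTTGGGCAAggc

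TTNNGNAA, searched on both strands, was in 3 of the 4 secondary granule windows (Ltf, Ngp and Lcn2, not Camp). In Lcn2 it was on the opposite strand alone. It was in 2 of the 2 cytosolic windows and in 0 of the 4 primary granule windows. It is a loose pattern, held by 36.8% of all windows. The absence of these letters from a window says nothing of whether a factor acts on the gene.

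Several of the genes are neighbours. Prtn3 (chr10:79874476-79883174) and Elane (chr10:79886247-79888215) lie 3072 bases apart on chromosome 10, in GENCODE M21 on GRCm38. S100a8 (chr3:90668978-90670035) and S100a9 (chr3:90692632-90695721) lie 22596 bases apart on chromosome 3. Camp (chr9:109847379-109849617), Ngp (chr9:110419747-110423012) and Ltf (chr9:111019271-111042767) lie along chromosome 9, with 570129 and 596258 bases between neighbours. Mpo (chr11:87793581-87804413), Ctsg (chr14:56099881-56102574) and Lcn2 (chr2:32384633-32388252) stand alone. The 16 nearest tested genes on either side of these places had Pearson's r with their granule gene between −0.45 and 0.40 over the 17 libraries. For several genes the GENCODE start differs from the RefSeq start used for the promoter windows. The windows of Prtn3 and Lcn2 lie within their GENCODE spans. Those of Mpo, Elane, S100a8, Ltf, Camp and Ngp run past the GENCODE start. Motif distances therefore hold for the RefSeq start alone.

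The primary granule genes were high in DM and close to 0 in Atm MT. Mpo encodes myeloperoxidase, which makes hypochlorous acid from hydrogen peroxide. Mpo was at 6.15 and 3.23 TPM in DM-CLL replicates 4 and 5. In DM it was at 10.6, 3.90 and 12.1 TPM. In Atm MT its lowest value was 0.02, its median 0.115 and its highest 1.20 TPM. Every DM library and both DM-CLL libraries were above every Atm MT library. Mpo had 0.50, 3.42 and 2.34 TPM in Sf3b1 MT, and 0.66, 1.49 and 5.64 TPM in WT. Every DM library was also above every Sf3b1 MT library, while WT replicate 3 lay above DM replicate 3.

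Elane encodes neutrophil elastase, a serine protease of the primary granule that is mutated in human cyclic neutropenia. It was at 5.86 and 2.35 TPM in DM-CLL and at 12.1, 4.56 and 8.70 TPM in DM. In Atm MT it ran between 0.06 and 1.5 TPM, with a median of 0.205. In Sf3b1 MT it was at 0.56, 4.10 and 2.86 TPM, against 0.61, 1.40 and 5.76 TPM in WT. The libraries that were high for Mpo were high for Elane, and the ratio of Elane to Mpo stayed between 0.717 and 1.22 in the 11 libraries outside Atm MT. In Atm MT, where both genes were near 0, that ratio ran between 0.809 and 4.0.

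Prtn3 encodes proteinase 3, the target of autoantibodies in human granulomatosis with polyangiitis, and is Elane's neighbour. It was at 4.55 and 1.22 TPM in DM-CLL and at 9.36, 2.82 and 5.62 TPM in DM. It was listed at 0 in Atm MT replicates 1, 2 and 4, at 0.14 and 0.18 TPM in replicates 6 and 5, and at 1.17 TPM in replicate 3. In Sf3b1 MT it was at 0.44, 2.22 and 0.84 TPM, against 0.27, 0.68 and 3.45 TPM in WT. DM and Atm MT did not overlap, and neither did DM and Sf3b1 MT.

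Ctsg encodes cathepsin G, a protease of primary granules with chymotrypsin-like cleavage. It was at 2.11 and 1.80 TPM in DM-CLL and at 5.77, 1.94 and 7.07 TPM in DM. It was listed at 0 in Atm MT replicates 1 and 4, and at 0.08 to 0.72 TPM in the other 4. Ctsg was the only one of the 10 genes below 1 TPM in all 6 Atm MT libraries. In Sf3b1 MT it was at 0.38, 1.48 and 1.14 TPM, against 0.29, 0.60 and 2.96 TPM in WT. The DM libraries were above all Atm MT and all Sf3b1 MT libraries, and overlapped WT.

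Summed over these 4 genes, DM averaged 28.2 ± 13.2 TPM, Atm MT 1.17 ± 1.71, Sf3b1 MT 6.76 ± 4.68 and WT 7.94 ± 8.63 (SD), with 18.7 and 8.60 TPM in the DM-CLL libraries. The DM mean was 24.1 times the Atm MT mean, 4.17 times the Sf3b1 MT mean and 3.55 times the WT mean. It was 58.04 times the Atm MT mean without Atm MT replicate 3, and 9.40 times the WT mean without WT replicate 3. No other single omission moved these ratios by over 1.5 times. In bulk RNA, fewer cells of a type and less RNA per cell cannot be told apart.

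**Figure D1:**
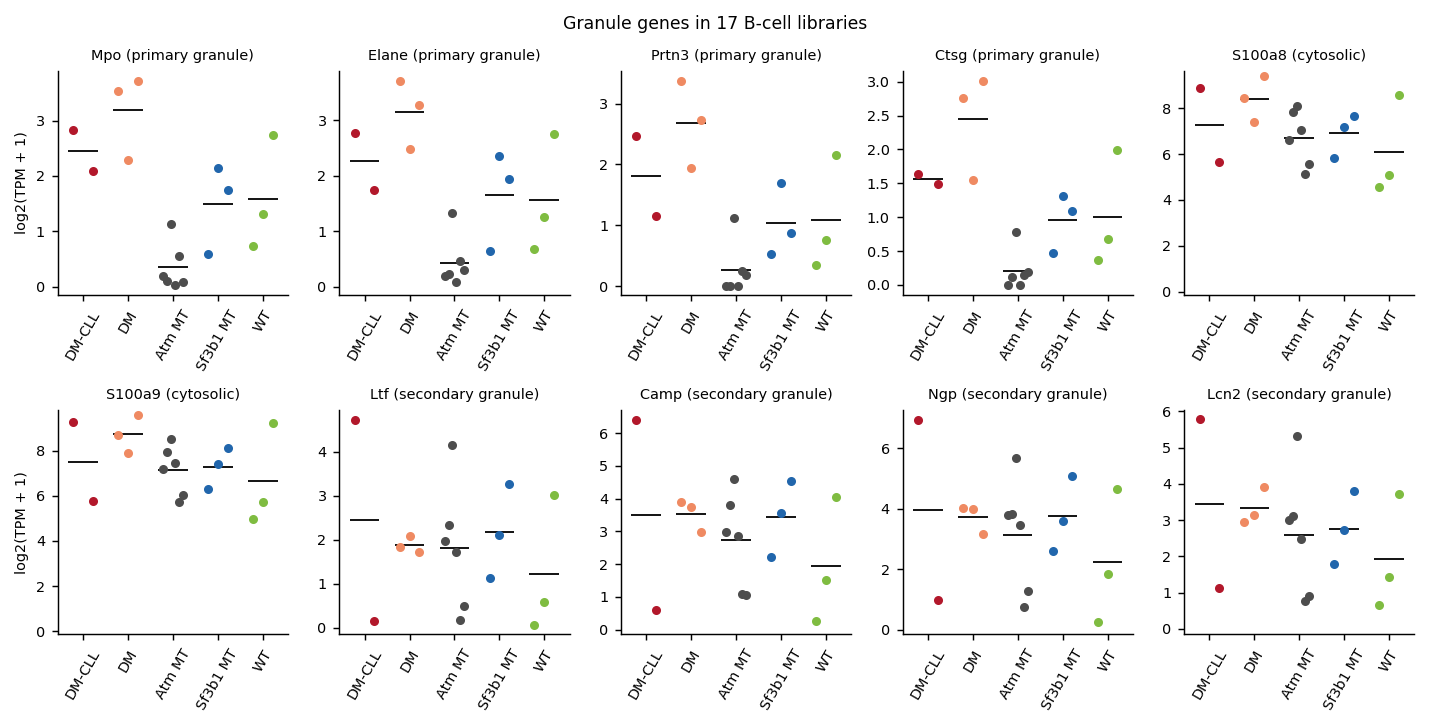
Level of each granule gene, as log2(TPM + 1), in each of the 17 libraries by group, with a scale of its own for each gene. Points are libraries and bars are group means; the DM points of the 4 primary granule genes lie above all 6 Atm MT points, while for the 4 secondary granule genes the 2 DM-CLL points lie far apart.

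S100a8 and S100a9 encode the chains of calprotectin, which binds calcium, zinc and manganese and is abundant in neutrophil cytosol. S100a9 had the highest TPM of the 10 genes in all 17 libraries, and its level was 1.07 to 1.58 times that of S100a8, on a scale corrected for length. S100a8 was at 464 and 49.5 TPM in DM-CLL replicates 4 and 5, and at 346, 165 and 672 TPM in DM. In Atm MT it ran between 33.6 and 271 TPM with a median of 115. In Sf3b1 MT it was at 56.5, 144 and 201 TPM, against 22.96, 33.04 and 380 TPM in WT. The groups overlapped in every pair. The 3 WT libraries differed more among themselves than the WT and DM means did.

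S100a9 followed it closely. It was at 615 and 54.1 TPM in DM-CLL, at 415, 240 and 768 TPM in DM and at 77.7, 172 and 276 TPM in Sf3b1 MT. In Atm MT its range was 51.5 to 362 TPM with a median of 161, and in WT its values were 30.8, 52.1 and 602 TPM. WT replicate 3 was the WT library with the highest level of all 10 genes. The pair made up 78.1% to 96.2% of the summed TPM of the 10 genes.

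The secondary granule genes had another order. Ltf encodes lactoferrin, an iron-binding protein. It was at 25.4 TPM in DM-CLL replicate 4 and 0.12 in DM-CLL replicate 5. In DM it was at 2.60, 3.26 and 2.29 TPM. In Atm MT the lowest value was 0.14, the median 2.62 and the highest 16.8 TPM. It had 1.20, 3.33 and 8.68 TPM in Sf3b1 MT, and 0.04, 0.50 and 7.09 TPM in WT. The DM libraries sat together inside the range of the Atm MT libraries.

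Camp encodes the precursor of the antimicrobial peptide cathelicidin. It was at 83.5 and 0.51 TPM in DM-CLL and at 13.8, 12.5 and 6.85 TPM in DM. Its values ran between 1.07 and 23.1 TPM in Atm MT, with a median of 6.58. In Sf3b1 MT Camp was at 3.68, 10.7 and 22.4 TPM, against 0.19, 1.87 and 15.5 TPM in WT. DM-CLL replicate 4 was the highest library and WT replicate 1 the lowest, and the other groups overlapped.

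Ngp encodes neutrophilic granule protein, a relative of cathelicidin in mouse secondary granules. Its levels were 120 and 0.98 TPM in DM-CLL, and 15.2, 14.7 and 7.94 TPM in DM. In Atm MT its values lay between 0.69 and 49.7 TPM with a median of 11.3. In Sf3b1 MT Ngp was at 5.01, 11.2 and 33.1 TPM, against 0.19, 2.59 and 24.0 TPM in WT. The ratio of Camp to Ngp lay between 0.464 and 1.62.

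Lcn2 encodes lipocalin 2, which binds bacterial siderophores. It was at 54.0 and 1.18 TPM in DM-CLL and at 6.78, 7.90 and 14.1 TPM in DM. Atm MT spanned 0.71 to 39.1 TPM with a median of 5.81. In Sf3b1 MT Lcn2 was at 2.43, 5.63 and 12.9 TPM, against 0.57, 1.72 and 12.1 TPM in WT. For all 4 secondary granule genes DM-CLL replicate 4 was the highest of the 17 libraries and WT replicate 1 the lowest.

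The sum of the secondary granule genes was 38.3, 38.3 and 31.2 TPM in DM (35.9 ± 4.10), against 37.6 ± 46.7 in Atm MT, 40.1 ± 33.4 in Sf3b1 MT and 22.1 ± 31.8 in WT (SD). The DM mean was 0.956 times the Atm MT mean, where for the primary granule genes it was 24.1 times that mean. This ratio for the secondary granule genes turned on the Atm MT libraries. It was 1.85 without Atm MT replicate 3 and 11.1 with Atm MT replicates 5 and 6 alone, where the ratio for the primary granule genes was 32.8. Over the Sf3b1 MT mean the secondary ratio was 0.896, and 1.66 without Sf3b1 MT replicate 3. Over the WT mean it was 1.63, and 9.37 without WT replicate 3.

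The 2 DM-CLL libraries differed from each other more in the secondary than in the primary granule genes. Replicate 4 over replicate 5 was 212 for Ltf, 164 for Camp, 123 for Ngp and 45.8 for Lcn2. It was 9.36 for S100a8 and 11.4 for S100a9, and 1.90 for Mpo, 2.49 for Elane, 3.73 for Prtn3 and 1.17 for Ctsg. These ratios compare a pair of libraries and have no replicate error. Replicate 4 also had the high erythroid and T-cell sums given above, and their part in its granule levels was not tested.

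Primary and secondary sums placed the libraries in different orders. The ratio of secondary to primary sum was 15.2 in DM-CLL replicate 4 and 0.324 in DM-CLL replicate 5. It lay between 0.931 and 2.90 in DM, 2.33 and 288.5 in Atm MT, 2.75 and 10.7 in Sf3b1 MT, and 0.541 and 3.29 in WT. Atm MT replicates 1, 2 and 4 had ratios of 98.7, 115 and 288.5, with secondary sums of 29.6, 38.0 and 23.1 TPM and primary sums of 0.30, 0.33 and 0.08 TPM. Those libraries were in the middle of the series for secondary granule genes and the 3 lowest for primary ones. They were also among the 4 with high red pulp macrophage genes. The part of those cells was not tested. Atm MT replicates 5 and 6, with 197 and 74.4 summed TPM of macrophage genes, had low sums of both sets, 1.14 and 0.58 TPM of primary and 2.66 and 3.81 TPM of secondary granule genes.

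**Figure D2:**
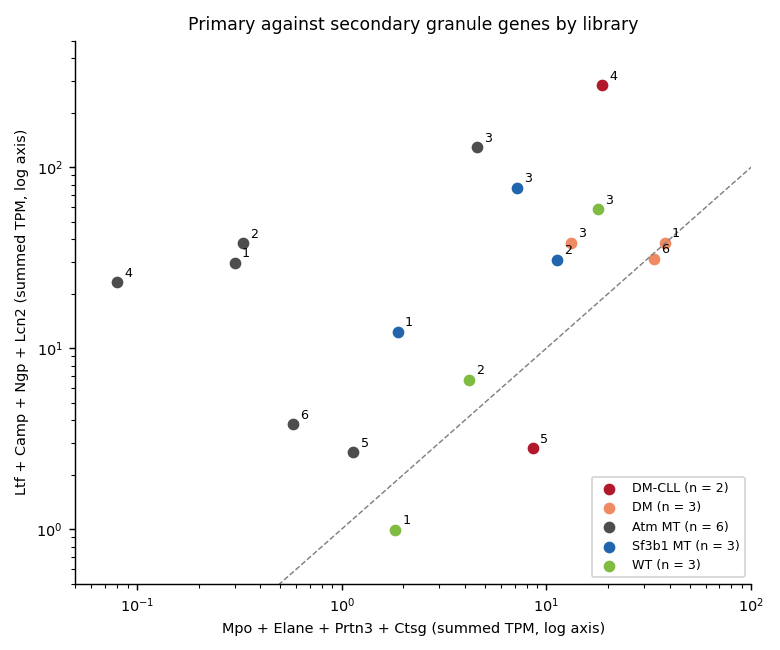
Summed TPM of the 4 primary granule genes (x, log axis) against the 4 secondary granule genes (y, log axis), 1 point per library, with the replicate number beside it and a dashed line where the sums are equal. DM replicates 1 and 6 lie close to the line, Atm MT replicates 1, 2 and 4 lie far above it with primary sums of 0.30, 0.33 and 0.08 TPM, and DM-CLL replicates 4 and 5 lie on opposite sides of it.

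Pearson's r of log2(TPM + 1) over the 17 libraries describes the same split. It lay between 0.96 and 0.99 for the 6 pairs of primary granule genes and between 0.94 and 0.99 for the 6 pairs of secondary granule genes, and was 0.99 for S100a8 with S100a9. Between a primary and a secondary granule gene it lay between 0.28 and 0.51 over 16 pairs. The S100 genes stood between the sets, with 0.63 to 0.68 for the primary and 0.80 to 0.89 for the secondary granule genes. The mean primary and mean secondary log2 levels had an r of 0.43 and Spearman's rho of 0.45, and an r of 0.51 without the 2 libraries farthest from the median primary level. With each gene centred on its group means, the 16 primary with secondary pairs had r between 0.44 and 0.68, against 0.86 to 0.97 within the primary and 0.94 to 0.99 within the secondary genes. Genes of a library share its total and its preparation, and the libraries of a group share a genotype, so these coefficients carry no p.

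**Figure D3:**
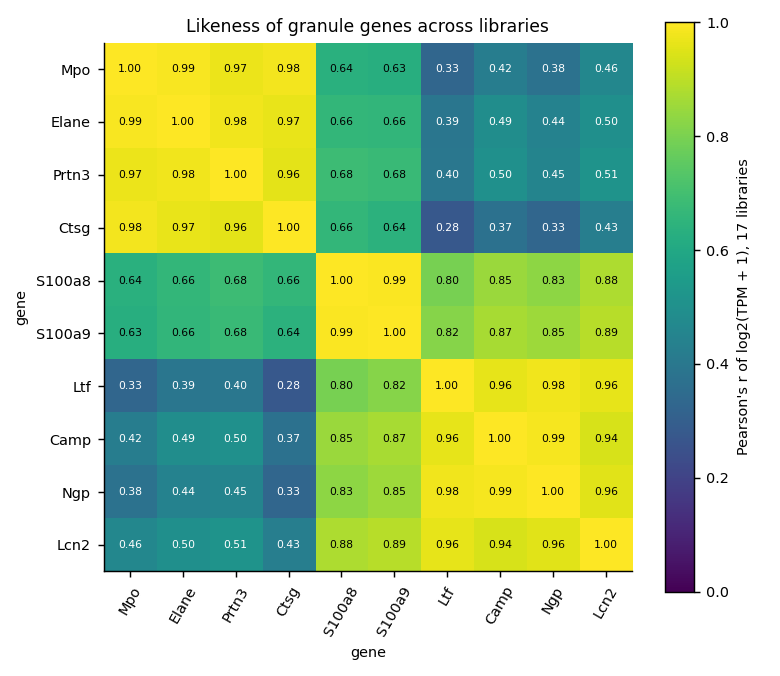
Pearson's r of log2(TPM + 1) over 17 libraries for each pair of the 10 granule genes, by colour and number. The primary block at the upper left and the secondary block at the lower right hold values of 0.94 or more, and the squares between those blocks hold 0.28 to 0.51.

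Group differences were fitted over all 9898 genes with limma on log2(TPM + 1), with Benjamini-Hochberg adjustment and a threshold of 0.05. Comparisons that share a group share its libraries. In DM against Atm MT, 4 of the 10 granule genes passed as higher and 0 as lower, where 1.54% of all genes tested passed as higher. The 4 were the primary granule genes, with log2 ratios of 2.83 ± 0.44 for Mpo, 2.72 ± 0.45 for Elane, 2.42 ± 0.40 for Prtn3 and 2.24 ± 0.36 for Ctsg (SE). These pseudocounted ratios understate the change of genes this low. S100a8 and S100a9 had log2 ratios of 1.69 ± 0.82 and 1.59 ± 0.80 and did not pass. The log2 ratios of Ltf, Camp, Ngp and Lcn2 were 0.07 ± 0.76, 0.81 ± 0.83, 0.59 ± 0.99 and 0.74 ± 0.85, and none of these passed. The median was 2.57 for the primary and 0.67 for the secondary granule genes, against −0.21 for all genes. With Atm MT replicates 1 to 4 left out the medians were 2.62 and 2.49, and the secondary median was 1.14 without Atm MT replicate 3, 0.25 without replicate 5 and 0.31 without replicate 6. Since the genes were listed with these values known, the counts support nothing beyond their own description.

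The calls of the primary granule genes rested on particular libraries. None of the 4 passed without DM replicate 1, when 7 of all genes did and the log2 ratios of Mpo, Elane, Prtn3 and Ctsg were 2.65, 2.44, 2.07 and 2.08. None passed without Atm MT replicates 1 to 4 together, when 0.273% of all genes did and the ratios were 2.86, 2.77, 2.46 and 2.27. All 4 passed under each other setting and each other omission. The 4 genes were also those with every DM library above every Atm MT library, as 2.21% of all genes were.

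In DM against Sf3b1 MT, 0 of the 10 passed, where 0.121% of all genes did. The same 4 primary granule genes had every DM library above every Sf3b1 MT library, as 3.88% of all genes did. Their log2 ratios were between 1.49 and 1.69, with SEs of 0.41 to 0.51. The median log2 ratio of the secondary granule genes was 0.02, and −0.57 without Sf3b1 MT replicate 1, against −0.11 for all genes. At an unadjusted p under 0.05 there were 4 granule genes, against 11.1% of all genes.

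In DM against WT, 0 of the 10 passed, where 2.23% of all genes did, and no granule gene had groups that did not overlap, where 2.06% of all genes had every DM library above every WT library and 28.1% below. All 10 log2 ratios were above 0, with a median of 1.59 against −0.25 for all genes. Unadjusted p-values under 0.05 were found for 6 of the 10 and for 24% of all genes. The result turned on WT replicate 3. Without it 6 of the 10 and 1.16% of all genes passed. The 6 had log2 ratios of 2.16 for Mpo, 2.18 for Elane, 2.13 for Prtn3, 1.92 for Ctsg, 3.57 for S100a8 and 3.37 for S100a9.

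Neither single lesion gave a call among the 10. In Atm MT against WT, 0 of the 10 passed, where 0.647% of all genes did. The primary granule genes had log2 ratios of −0.80 to −1.24 with a median of −0.98, and the secondary granule genes had ratios above 0 with a median of 0.73, against −0.05 for all genes. Unadjusted p was under 0.05 for 3 of the 10, against 11.3% of all genes. The secondary median was −0.98 without Atm MT replicates 1 to 4 and −0.02 without WT replicate 1. The median of all 10, which was 0.54, was −0.87 and −0.23 without those libraries.

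In Sf3b1 MT against WT, 0 of the 10 passed, where 0.0707% of all genes did, and 0 had an unadjusted p under 0.05, against 10.6% of all genes. The primary median was −0.05, or 0.02 with median-ratio scaling, and the secondary median 1.23, against −0.11 for all genes. The primary median was 0.48 without WT replicate 3 and 0.28 without Sf3b1 MT replicate 1. The secondary median was 0.45 without WT replicate 1, 0.63 without Sf3b1 MT replicate 3 and 2.21 without WT replicate 3. The interaction term (DM + WT, less Atm MT and Sf3b1 MT) gave 0 calls among the 10 and 0% of all genes. Its log2 values were 2.29 to 2.93 for the primary granule genes and −0.93 to −0.09 for the secondary ones, whose median of −0.79 became 0.11 without WT replicate 1. Unadjusted p was under 0.05 for the 4 primary granule genes, against 5.52% of all genes.

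In DM-CLL against DM, 0 of the 10 passed, where 31.2% of all genes did, most of them higher. The primary median was −0.87, the S100 median −1.18 and the secondary median 0.17, which was −0.29 with median-ratio scaling, against 0.43 for all genes. The secondary value hung on which DM-CLL library was used, and was −2.48 without replicate 4 and 2.85 without replicate 5. Without DM replicate 3, Ctsg passed as lower, with a log2 ratio of −1.32. In that setting 22.4% of all genes passed in either direction, and the share as lower was not taken apart. With all libraries 29.2% of all genes passed as higher and 1.97% as lower. In DM-CLL against WT, 0 of the 10 passed, where 13.1% of all genes did. The secondary median of 1.54 became −1.16 without DM-CLL replicate 4 and 4.16 without replicate 5, where Camp passed with a log2 ratio of 4.46 and 12.5% of all genes passed. At an unadjusted p under 0.05 there were 0 of the 10 in both comparisons, against 43.4% and 26.9% of all genes.

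**Figure D4:**
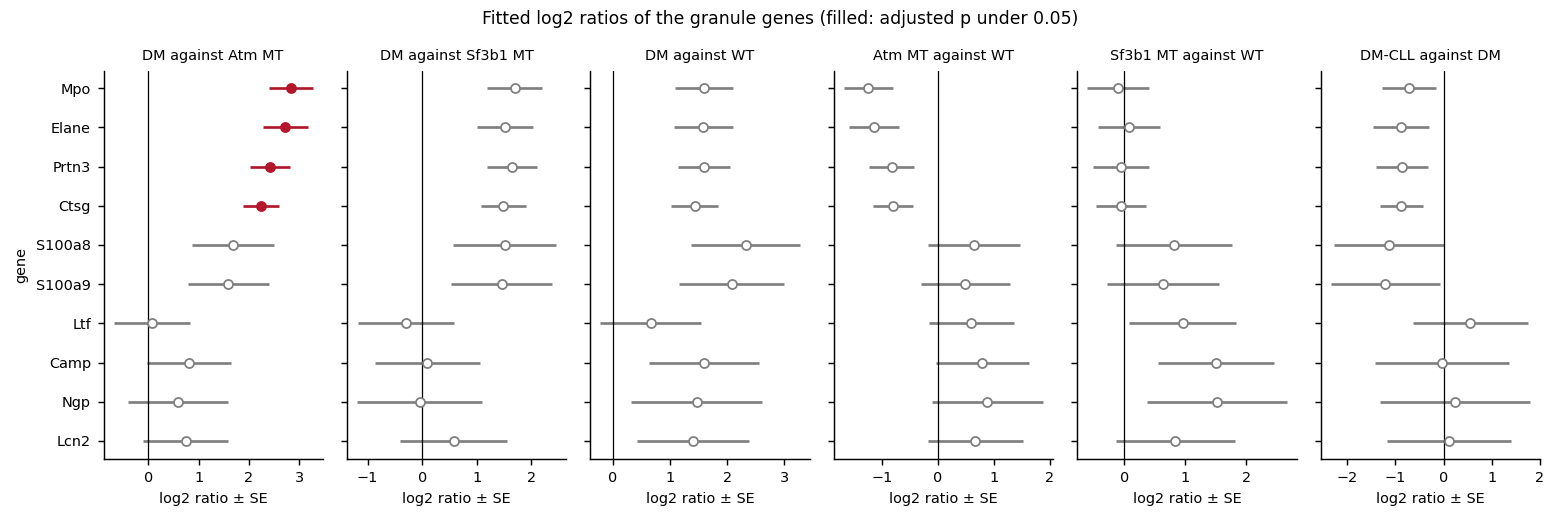
Fitted log2 ratio of each granule gene in 6 comparisons, with bars of 1 SE and filled points where the adjusted p over all 9898 genes was under 0.05. Filled points are those of Mpo, Elane, Prtn3 and Ctsg in DM against Atm MT, where the secondary granule genes lie between 0.07 and 0.81.

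Other neutrophil genes were read from a list of 44, of which 39 were in the table and 36 were tested. In DM against Atm MT, 5 of the 36 passed as higher and 1 as lower, against 1.54% and 4.52% of all genes. Their median log2 ratio was 0.90, and 30 of the 36 were above 0. Ms4a3, a membrane protein of granulocyte-monocyte progenitors, had 4.04, 0.77 and 1.84 TPM in DM and 0 to 0.45 TPM in Atm MT, a log2 ratio of 1.33 ± 0.28 (adjusted p = 0.0278, limma). The other genes that passed as higher were Nkg7, which is also a natural killer cell gene, with a log2 ratio of 1.97 ± 0.38, Clec4d with 1.23 ± 0.30, Il1r2 with 0.92 ± 0.26 and Cebpa with 0.89 ± 0.25. Cebpa encodes the factor that drives granulocyte commitment, and Clec4d and Il1r2 encode a lectin receptor and a decoy receptor for interleukin-1. Ctsc encodes cathepsin C, the protease that activates the serine proteases of primary granules. It passed as lower, with a log2 ratio of −0.89 ± 0.20 (adjusted p = 0.0299, limma), at 43.0 to 74.2 TPM in DM and 75.2 to 146 TPM in Atm MT.

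Of these 6 calls, none held under all 20 other settings. Ms4a3 and Nkg7 passed in 16 of the 20, Ctsc in 14, Clec4d in 12, Il1r2 in 4 and Cebpa in 3. None of the 6 passed without DM replicate 1, without Atm MT replicate 4 or without Atm MT replicates 1 to 4 together. Ctsc did not pass with median-ratio scaling, under which 10 of the 36 passed as higher and 0 as lower, against 2.78% and 1.12% of all genes. With TPM as deposited, the 17 tested genes of mature neutrophils all had log2 ratios above 0. Their median was 1.13, against −0.21 for all genes. Of them, 2 passed as higher, Clec4d and Il1r2, against 1.54% of all genes. Lyz2, which encodes lysozyme and is also made by macrophages, had a log2 ratio of 2.47 ± 0.71 (adjusted p = 0.0529, limma). Il1b had 2.08 ± 0.63 (adjusted p = 0.0578, limma), and Serpinb1a, an inhibitor of granule proteases, had −0.63 ± 0.26 (adjusted p = 0.129, limma).

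In DM against WT 0 of the 36 passed in limma, against 2.23% of all genes. At an unadjusted p under 0.05 there were 18 of the 36, against 24% of all genes, with a median log2 ratio of 0.91 and 28 of the 36 above 0. The extremes were Hp, the gene of haptoglobin, at 1.98 ± 0.71 and Stfa2l1 at 1.79 ± 0.69, and Ctsc at −0.65 ± 0.23 and Calr at −0.56 ± 0.18. In Atm MT against WT, Sf3b1 MT against WT, DM against Sf3b1 MT and the interaction, 0 of the 36 passed either, against 0.647%, 0.0707%, 0.121% and 0% of all genes. In that order 4, 4, 13 and 7 of the 36 had an unadjusted p under 0.05, against 11.3%, 10.6%, 11.1% and 5.52% of all genes. In Atm MT against WT, Nkg7 was at −1.20 ± 0.38, Lyz2 at −1.19 ± 0.71, Csf3r at 0.40 ± 0.52 and Slpi at 0.81 ± 0.43. In Sf3b1 MT against WT, Padi4 was at −0.68 ± 0.26, Ctsc at −0.52 ± 0.23, Retnlg at 0.46 ± 0.90 and Serpinb1a at 0.51 ± 0.30. In DM against Sf3b1 MT, Serpinb1a was at −1.02 ± 0.30, Cnn2 at −0.56 ± 0.21, Hp at 1.60 ± 0.71 and Stfa2l1 at 1.69 ± 0.69. In the interaction, Serpinb1a was at −1.14 ± 0.40, Ctsc at −0.37 ± 0.30, Nkg7 at 2.25 ± 0.58 and Lyz2 at 2.60 ± 1.09.

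In DM-CLL against DM, 2 of the 36 passed as higher and 3 as lower, against 29.2% and 1.97% of all genes. Slpi encodes a secreted inhibitor of elastase and cathepsin G. It had 15.9 and 33.1 TPM in DM-CLL and 238, 486 and 336 TPM in DM, a log2 ratio of −3.83 ± 0.56 (adjusted p = 2.03e-04, limma). G0s2 and Trem1 were the other genes that passed as lower, with log2 ratios of −1.62 ± 0.45 and −1.26 ± 0.42. Cybb, the catalytic subunit of the phagocyte NADPH oxidase, had 366 and 254 TPM in DM-CLL and 108.7, 98.5 and 116 TPM in DM. Its log2 ratio was 1.49 ± 0.23 (adjusted p = 2.64e-04, limma). Ctsc had a log2 ratio of 1.66 ± 0.25 (adjusted p = 2.49e-04, limma), opposite in sign to the primary granule genes. Slpi, Cybb and Ctsc passed in all 21 other settings, G0s2 in 18 and Trem1 in 15. Neither G0s2 nor Trem1 passed with the replicate block, without DM-CLL replicate 4 or without DM-CLL replicate 5, and Trem1 did not pass without the filter or without DM replicate 1 or 6 either. Of the 17 mature neutrophil genes, 16 were below 0, with a median of −0.91, while the median of all genes was 0.43. In DM-CLL against WT, Cybb at 1.05 ± 0.23 and Ctsc at 1.01 ± 0.25 passed as higher, and Slpi at −2.68 ± 0.56 and Calr at −0.74 ± 0.21 as lower, against 10.3% and 2.81% of all genes. Hp at 1.45 ± 0.77, Myb at 1.15 ± 0.54 and Gfi1 at −1.16 ± 0.67 did not pass there, nor did Il1b at −1.70 ± 0.79 in DM-CLL against DM. All of Cybb, Ctsc and Slpi were above 15 TPM in each of the 17 libraries, also in those where the granule genes were near 0.

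The genes with the profile most like the mean of the 10 granule genes, by Pearson's r of log2(TPM + 1) over 17 libraries, were Retnlg with 0.90, Mmp8 with 0.87, Ly6g with 0.87, Cd177 with 0.84, Fcnb with 0.83, Phospho1 with 0.83, Hdc with 0.82, Trem3 with 0.82, Nfe2 with 0.81 and Mmp9 with 0.79. Of these 10, 7 were on the list of other neutrophil genes. Retnlg, whose product is a resistin-like protein of neutrophils, ran between 2.94 TPM in an Atm MT library and 59.1 TPM in a DM library. Ly6g, the surface antigen by which mouse neutrophils are sorted, did not exceed 1.80 TPM.

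Taken by set, in a step chosen after values had been seen, the primary granule genes were most like Ms4a3, with an r of 0.92, and Hp, with 0.85. The secondary granule genes were most like Retnlg, with 0.82, Hba-a2, a haemoglobin gene, with 0.81, Ly6g, with 0.80, Hba-a1, with 0.78, and Alas2, a gene of haem synthesis, with 0.77. Hba-a2 was at 27113 TPM in DM-CLL replicate 4, at 25.8 TPM in DM-CLL replicate 5 and at 1959 TPM in Atm MT replicate 3.

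Genes of other cells took the following levels beside these. The summed TPM of 8 stem and progenitor genes was 8.71 and 21.4 in DM-CLL, 23.96 to 41.02 in DM, 1.90 to 18.5 in Atm MT, 13.3 to 23.0 in Sf3b1 MT and 10.6 to 17.4 in WT. Kit, the receptor that marks progenitors and mast cells, was listed at 0 in Atm MT replicates 1 to 4 and was between 0.69 and 3.53 TPM in the other 13. The 8 monocyte genes summed to 69.0 and 79.7 TPM in DM-CLL, 136 to 174 in DM, 86.6 to 168 in Atm MT, 69.0 to 79.8 in Sf3b1 MT and 44.6 to 109.6 in WT. In DM against Atm MT, where the primary granule genes were called, genes of several other cells were called as higher too. These were 6 of 10 tested erythroid genes with a median log2 ratio of 2.47, 2 of 7 platelet and megakaryocyte genes, 2 of 8 natural killer cell genes, 1 of 8 dendritic cell genes and 1 of 3 stem and progenitor genes, against 1.54% of all genes. The erythroid genes included Klf1, an erythroid transcription factor, at 2.69 ± 0.64 and Car1, a carbonic anhydrase, at 4.57 ± 0.81 (SE). The 10 B-cell genes went the other way in that comparison. All 10 had log2 ratios below 0, with a median of −0.51, against −0.21 for all genes. Of them, 2 were called as lower, against 4.52% of all genes.

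The erythroid sum was 35084 and 47.3 TPM in DM-CLL, 272 to 2400 in DM, 17.2 to 2550 in Atm MT, 104 to 1290 in Sf3b1 MT and 159 to 392 in WT, so DM and Atm MT overlapped. Of these lists, 4 had lower sums in Atm MT replicates 1 to 4 than in any other library. The platelet and megakaryocyte sum was 1.45 to 4.31 TPM in those 4, against 9.55 to 42.6 in the other 13, with 13.4 to 16.4 in DM. The natural killer cell sum was 1.85 to 9.57 TPM in those 4, against 11.3 to 36.8 in the other 13, with 20.1 to 36.3 in DM. The dendritic cell sum was 11.1 to 19.3 TPM in those 4, against 23.5 to 75.1 in the other 13, with 49.9 to 75.1 in DM. The stem and progenitor sum was 1.90 to 7.71 TPM in those 4, against 8.71 to 41.02 in the other 13. The part of these cells in the granule gene levels was not tested.

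Markers of the other granulocytes were read too. The 8 basophil and mast cell genes summed to at most 7.29 TPM in any library. Their sum too was lowest in Atm MT replicates 1 to 4, at 0.05 to 0.14 TPM, against 0.46 to 7.29 in the other 13. Of the eosinophil genes, Epx, which encodes eosinophil peroxidase, was at most 0.19 TPM and was listed at 0 in 7 of 17 libraries. Prg2, another eosinophil granule gene, was between 5.84 and 159 TPM. It was highest in DM replicate 3 and lowest in DM-CLL replicate 5. The 7 eosinophil genes in the table summed to 46.4 to 167 TPM, and those tested did not move together. In DM-CLL against DM, Prg2 had a log2 ratio of −3.50 ± 0.58 and passed as lower. Il5ra, at 4.08 ± 0.55, passed as higher, against 29.2% of all genes as higher and 1.97% as lower. Ccr3 was at −0.40 ± 0.83. None of these 3 passed in DM against Atm MT. Prg2 was at 0.98 ± 0.46 there, Il5ra at −1.47 ± 0.44 and Ccr3 at −1.87 ± 0.66. Bulk RNA does not show which cells these transcripts came from, and that was not tested.

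**Figure D5:**
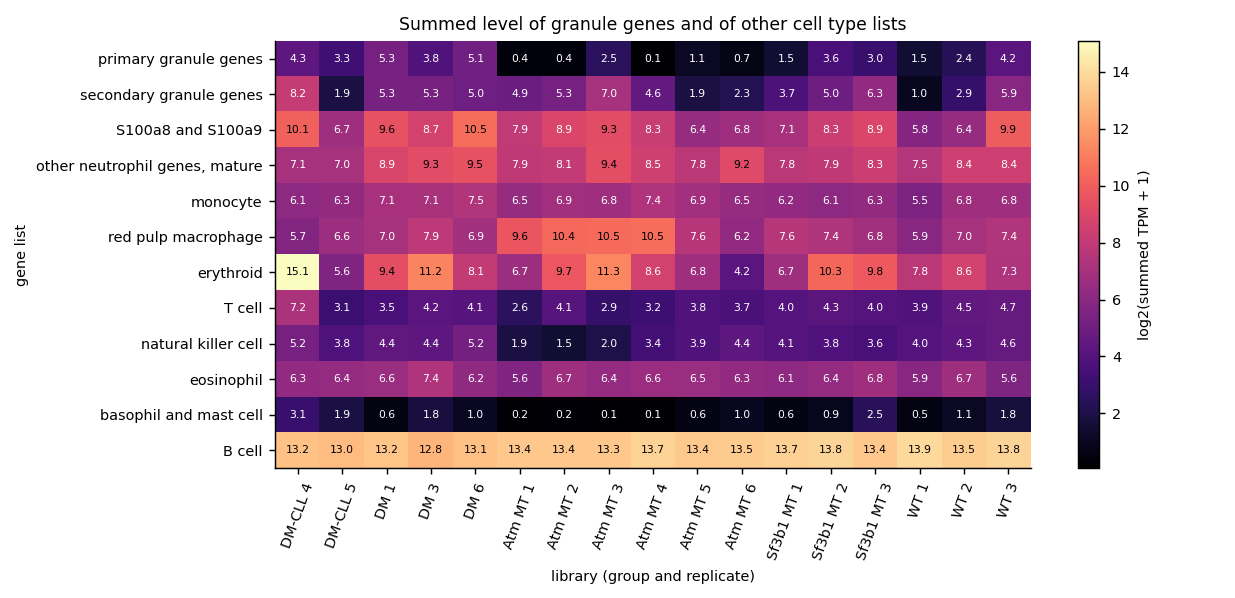
Summed level of each gene list in each library, as log2(summed TPM + 1), by colour and number, with libraries ordered by group. The primary granule genes are lowest in Atm MT replicates 1, 2 and 4, the secondary granule and erythroid genes highest in DM-CLL replicate 4, the red pulp macrophage genes high in Atm MT replicates 1 to 4, and the B-cell genes high in every library.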

How the data were processed

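The authors deposited TPM for 18554 gene symbols in 17 libraries. RNA was polyadenylated and libraries were made with a NEBNext Ultra kit, per the labels' protocols. STAR and the mm10 genome are named, per the submitters' processing notes. The quantifier, annotation and versions are not given in the sources used here. In each library, the TPM in the table add up to between 43.1% and 59.7% of the scale's full total.

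Groups came from the genotype labels. Of the symbols, 9898 with at least 1 TPM in at least 2 libraries were tested as log2(TPM + 1) in limma 3.58.1 (R 4.3.3), trend-moderated and 2-sided, with p-values adjusted by Benjamini-Hochberg and a threshold of 0.05. Comparisons with DM-CLL used all 17 libraries and the others the 15 without DM-CLL. Sums, ratios, correlations and figures were made with numpy 2.4.6, pandas 2.3.3, matplotlib 3.10.9 and scipy 1.17.1 under Python 3.11.15. The fit was tested on simulated data with changes planted in more abundant genes alone. That test does not cover genes as low as the primary granule genes. Alternatives were a pseudocount of 0.1, no filter, median-ratio scaling over 7769 genes, the replicate number as a block, and leaving out libraries.

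The 10 genes and all gene lists were chosen with earlier results of these data known. Named were Sf3b1, Atm, the 10 genes, the 10 genes most like them by Pearson's r, other neutrophil genes that passed, and the 2 highest and 2 lowest of those per comparison. Other genes named for a cell type are markers of their lists. The genes most like each set, Hba-a2 among them, the motifs, the calls of other neutrophil genes under each setting, the ratios of summed TPM with libraries left out and the shares of all genes called beside them were added after values or sequences were seen. Promoter windows came from RefSeq on GRCm38.p6 and gene positions from GENCODE M21.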

Additional observations from a re-analysis of the deposited data

Results flagged for a closer look

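Atm MT replicate 3 lay far above the other 5 Atm MT libraries in 8 of the 14 measures of granule genes examined in that group, by a gap to its nearest neighbour of more than 0.625 of the group's range. Chance alone flags about 1 in 20 groups where values are spread normally. These measures are TPM without a log, for which that rate need not hold. They are not independent either, since the genes of a set moved together. Of the primary granule genes, Elane was at 1.5 TPM in that library, against 0.38 in the next highest, Prtn3 at 1.17 against 0.18 and Ctsg at 0.72 against 0.14. Their set's sum, with Mpo, was 4.59 TPM against 1.14. Of the secondary granule genes, Ltf was at 16.8 TPM in that library, against 4.09 in the next highest, Ngp at 49.7 against 13.3 and Lcn2 at 39.1 against 7.63. Their set's sum, with Camp, was 128.6 TPM against 38.0. The same library had the highest erythroid sum of the Atm MT group, 2550 TPM, and 1403 summed TPM of red pulp macrophage genes, between those of Atm MT replicates 2 and 4. The part of those cells was not tested. Without it the 4 primary granule genes still passed in DM against Atm MT.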

How the results depend on the processing

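The numbers of genes called depended on the settings, and so did some values of the granule genes. With median-ratio scaling, calls numbered 3 in Sf3b1 MT against WT, against 7 with TPM as deposited, 27 in DM against WT (221 as deposited), 386 in DM against Atm MT (599) and 1622 in DM-CLL against DM (3084). That scaling moved the median of all genes by 0.11 in Sf3b1 MT against WT, 0.28 in DM against WT, 0.22 in DM against Atm MT, 0.16 in DM against Sf3b1 MT, 0.10 in the interaction, −0.46 in DM-CLL against DM and −0.17 in DM-CLL against WT. The share of calls that were higher was 71.2% in DM against Atm MT (25.4% as deposited), 55.6% in DM against WT (6.79%), 62.5% in DM against Sf3b1 MT (33.3%), 53.8% in DM-CLL against DM (93.7%) and 56.8% in DM-CLL against WT (78.6%). The granule genes called were the same number under it in every comparison. Without the filter, calls numbered 17 in Sf3b1 MT against WT, 168 in DM against Atm MT, 4 in DM against Sf3b1 MT (12 with the filter) and 5 in the interaction (0). A pseudocount of 0.1 gave 3 in Sf3b1 MT against WT. Without Atm MT replicates 1 to 4, calls numbered 40 in Atm MT against WT (64 with them) and 27 in DM against Atm MT, 0 of the 10 granule genes passed in DM against Atm MT (4 with them), and their median log2 ratio in Atm MT against WT was −0.87 (0.54 with them).

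Same-numbered libraries did not deviate together: of 18 such pairs 5 had a correlation over 0.1, in a range of −0.36 to 0.36, and 2 of 17 libraries correlated best with their own number. With the replicate block, calls numbered 4 in Sf3b1 MT against WT, 303 in Atm MT against WT, 1131 in DM against WT, 1247 in DM-CLL against DM and 755 in DM-CLL against WT (1299 without it). The block changed no call of a granule gene.

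Leaving out 1 library at a time gave 0 to 23 calls in Sf3b1 MT against WT, 19 to 198 in Atm MT against WT, 10 to 318 in DM against WT, 7 to 864 in DM against Atm MT, 0 to 18 in DM against Sf3b1 MT, 0 to 1 in the interaction, 1504 to 3345 in DM-CLL against DM and 696 to 1422 in DM-CLL against WT. The fewest calls in DM against Atm MT came without DM replicate 1, with 9 without DM replicate 3 and 18 without Atm MT replicate 4. Granule genes called ranged between 0 and 6 in DM against WT, 0 and 4 in DM against Atm MT, and 0 and 1 in each comparison with DM-CLL. Their median log2 ratio ranged between −0.35 (without WT replicate 3) and 1.71 in the interaction, −1.97 and 0.50 in DM-CLL against DM and −0.62 and 2.70 in DM-CLL against WT. With DM-CLL cut to 1 library, that library is assumed to vary like the other groups. Of the 10 genes most like the granule genes, 4 remained when values were centred on group means. The cause of these changes was not tested. Without counts the depth is unknown, and levels under 1 TPM are read with that limit.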
